A study of Mus musculus with 6 samples.

Results

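The subunits of the 5 oxidative phosphorylation complexes were examined in the brain without its cerebellum of mice lacking Gb5 and of wild-type mice. The members are all probe sets annotated to exactly 1 gene whose symbol follows a naming pattern of nuclear-encoded subunits of complexes I to V. The patterns also take close paralogues and leave out subunits named otherwise, such as Cyc1 of complex III. The rule took 164 of 45037 probe sets and 81 of 18193 genes. Complex I (Nduf symbols) held 73 probe sets of 35 genes, complex II (Sdh) 9 of 4, complex III (Uqcr) 16 of 8, complex IV (Cox) 35 of 17 and complex V (Atp5) 31 of 17. A further 9 probe sets annotated to several genes, members of the families among them, were left out. Gene symbols are those of the array annotation, so Atp5a1 stands for the ATP synthase alpha subunit and Atp5pb for its b subunit. Complexes were assigned by symbol, which puts Ndufa4, now placed in complex IV, with complex I.

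Gb5-deficient mice gave 3 samples, Gb5ko replicates 1 to 3, and wild-type mice gave the other 3, Gb5wt replicates 4 to 6. Gb5 is the G protein beta subunit encoded by Gnb5. The labels describe littermates matched for age and sex, but give no age, no strain, no sex of each animal and no design of the deficient allele. Each sample was hybridised to an Affymetrix expression array, and the values are log2 levels.

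Oxidative phosphorylation is carried out in the inner mitochondrial membrane. Complexes I and II pass electrons from NADH and succinate to ubiquinone, complex III passes them on to cytochrome c, and complex IV reduces oxygen. Complexes I, III and IV pump protons, and complex V, the ATP synthase, uses the gradient to make ATP. Neurons depend on this ATP to restore ion gradients after synaptic activity. Many nuclear genes of these complexes are known targets of nuclear respiratory factor 1 (NRF-1) and of the ETS factor GABP, also called NRF-2, which bind close to the transcription start.

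Letters of these factors were more frequent in promoters of the subunit genes than in promoters in general, a feature the choice of members did not use. RefSeq windows from 250 bases before to 50 after the start, on GRCm38.p6, were matched by gene ID to 66 of the 81 genes and gave 71 windows. The NRF-1 letters CGCNTGCGC, or GCGCANGCG read on the other strand, were in 26.8% of these windows and in 6.25% of all 32851 windows of the same length. The ETS letters CCGGAAG, or CTTCCGG on the other strand, were in 23.9% and 8.86%. Neither pattern contains the other. A further search, for AAGATGGCG and CGCCATCTT, which belong to the factor YY1, gave 8.45% and 1.40%, while TATAAA or TTTATA was in 12.7% and 13.6%. NRF-1 or ETS letters were found for 29 of the 66 genes, and both for 6. By complex, NRF-1 letters were found for 6 of 31 matched genes of complex I, 2 of 3 of complex II, 2 of 5 of complex III, 1 of 12 of complex IV and 7 of 15 of complex V. These counts by gene are not set against counts over all genes. A match describes the sequence and shows no binding.

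The following windows, 1 from each complex and chosen because they hold such a match before the start, show how close the letters lie to it. Each runs 5′ to 3′ on the gene's strand and ends at the base before the start, and capitals mark NRF-1 or ETS letters.
Ndufa5 (chr6:24527691-24527940, minus strand): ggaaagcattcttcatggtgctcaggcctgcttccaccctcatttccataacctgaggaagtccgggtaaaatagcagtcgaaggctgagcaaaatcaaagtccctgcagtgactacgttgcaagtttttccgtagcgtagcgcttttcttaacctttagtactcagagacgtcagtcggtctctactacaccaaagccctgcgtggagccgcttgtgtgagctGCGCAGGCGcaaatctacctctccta
Sdhd (chr9:50603850-50604099, minus strand): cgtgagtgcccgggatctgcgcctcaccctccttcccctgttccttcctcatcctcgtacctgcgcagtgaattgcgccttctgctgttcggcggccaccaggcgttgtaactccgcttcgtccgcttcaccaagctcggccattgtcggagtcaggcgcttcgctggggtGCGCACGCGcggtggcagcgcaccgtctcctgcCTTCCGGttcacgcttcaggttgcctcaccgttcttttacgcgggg
Uqcrh (chr4:116075071-116075320, minus strand): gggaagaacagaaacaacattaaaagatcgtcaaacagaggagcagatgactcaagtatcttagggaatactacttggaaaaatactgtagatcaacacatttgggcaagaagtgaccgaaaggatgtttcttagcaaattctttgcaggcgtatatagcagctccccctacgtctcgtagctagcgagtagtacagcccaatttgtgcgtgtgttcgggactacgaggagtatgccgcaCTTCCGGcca
Cox6a1 (chr5:115348959-115349208, minus strand): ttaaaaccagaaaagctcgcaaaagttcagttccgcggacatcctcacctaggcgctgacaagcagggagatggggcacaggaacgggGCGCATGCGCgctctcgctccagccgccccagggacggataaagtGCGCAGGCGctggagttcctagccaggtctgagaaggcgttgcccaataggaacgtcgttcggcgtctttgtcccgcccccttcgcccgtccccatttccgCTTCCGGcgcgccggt
Atp5k (chr5:108434400-108434649, minus strand): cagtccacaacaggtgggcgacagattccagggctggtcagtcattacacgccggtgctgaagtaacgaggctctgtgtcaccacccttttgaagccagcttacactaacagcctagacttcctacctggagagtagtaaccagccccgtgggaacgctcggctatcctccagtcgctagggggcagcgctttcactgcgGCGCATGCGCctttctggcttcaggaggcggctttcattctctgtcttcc
Ndufa5 held NRF-1 letters from 26 to 18 bases before the start. Sdhd held NRF-1 letters from 79 to 71 and ETS letters from 46 to 40 bases before it. Uqcrh held only ETS letters of these pairs, 10 to 4 bases before the start, while Cox6a1 held NRF-1 letters at 162 to 154, 161 to 153 and 117 to 109 and ETS letters at 16 to 10. In Atp5k, matches at 50 to 42 and 49 to 41 bases before the start overlapped, one on each strand. Member probe sets of genes with NRF-1 letters had a median knockout minus wild-type difference of 0.032 on the log2 scale (31 probe sets), and those of matched genes without them 0.077 (105). With and without ETS letters the medians were 0.077 (33) and 0.061 (103).

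As a check of the labels, the brighter Gnb5 probe set read 8.79, 8.98 and 9.30 in wild-type replicates 4 to 6 and 3.67, 3.00 and 3.56 in knockout replicates 1 to 3, with a limma adjusted p of 4.48e-06 and an exact permutation p of 0.1, the smallest that 3 against 3 arrays allow. Neuronal markers were bright on all arrays, with the mean of 8 genes between 12.4 and 12.5. Of the cerebellar markers, Gabra6 read 2.80 to 3.54 and Cbln3 3.83 to 4.96, but Cbln1, which other brain regions also express, read 10.6 to 11.3 and Pcp2 8.51 to 8.73. Several arrays stood apart in other transcripts. Xist read 4.96 in Gb5wt replicate 4, 8.31 in Gb5ko replicate 2 and 10.6 to 10.8 in the other four, while the Y-linked Eif2s3y read 11.3 in both of those arrays and 2.96 to 6.97 in the others. The samples thus differ in sex-linked transcripts within both groups, although the labels call the cohorts sex matched. The pituitary hormone gene Gh read 10.6 in Gb5ko replicate 3 and 4.20 to 6.21 elsewhere. Left out in turn, Gb5ko replicate 2, Gb5ko replicate 3 and Gb5wt replicate 4 gave median member differences of 0.080, 0.075 and 0.038, against 0.072 with all arrays, and 0 called members each.

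No subunit transcript differed between genotypes beyond the adjusted threshold. Of the 81 genes, 70 had a probe set with a mean level of 10 or more, among them 9 of 17 in complex IV. In limma, with Benjamini-Hochberg adjustment over 45037 probe sets at 0.05, 0 of 164 member probe sets were called, where 12 of all probe sets, 0.0266%, were. The smallest adjusted p of a member was 0.186. An unadjusted p under 0.05 was reached by 8 members with a positive difference (4.88%) and 7 with a negative one (4.27%), against 8.09% and 6.33% of all probe sets. Both shares lay below those of the whole array, but with trend and robust eBayes 22 members (13.4%) had a positive difference at that level, against 8.68% of all probe sets. Negative differences in that run are not counted here, so the rise is not read as upward only. The 95% interval of the difference lay within 1 log2 unit of 0, a 2-fold change, for all 164 member probe sets, and within 0.5 for 139. The median standard error of a member difference was 0.108.

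Small differences pointed upwards more often than on the whole array. Of the 164 differences, 113 were positive, 68.9% against 55.5% of all probe sets, with a median of 0.072 against 0.026. The knockout arrays lay above all wild-type arrays at 40 members, 24.4%, against 12.5% of all probe sets, and below them at 12, 7.32%, against 8.95%. Among the 120 members with a mean level of 10 or more, 91 differences (75.8%) were positive and the median was 0.081, while 51.8% of the 5113 probe sets that bright were positive with a median of 0.0082. Among these bright members 6 had a positive difference (5.00%) and 4 a negative one (3.33%) at an unadjusted p under 0.05, against 6.28% and 8.82% of all probe sets that bright. The upward share was thus not shared by bright probe sets in general, but 2 arrays carried much of it. Without Gb5ko replicate 1 and Gb5wt replicate 4, 94 of 164 differences (57.3%) were positive against 54.2% of all probe sets, with medians of 0.020 and 0.017. Among the bright ones 63.3% of members and 51.3% of all were then positive, with medians of 0.038 and 0.0041. Of the 164 members 30.5% then lay higher and 14.0% lower without overlap, against 23.2% and 17.4% of all probe sets.

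**Figure D1:**
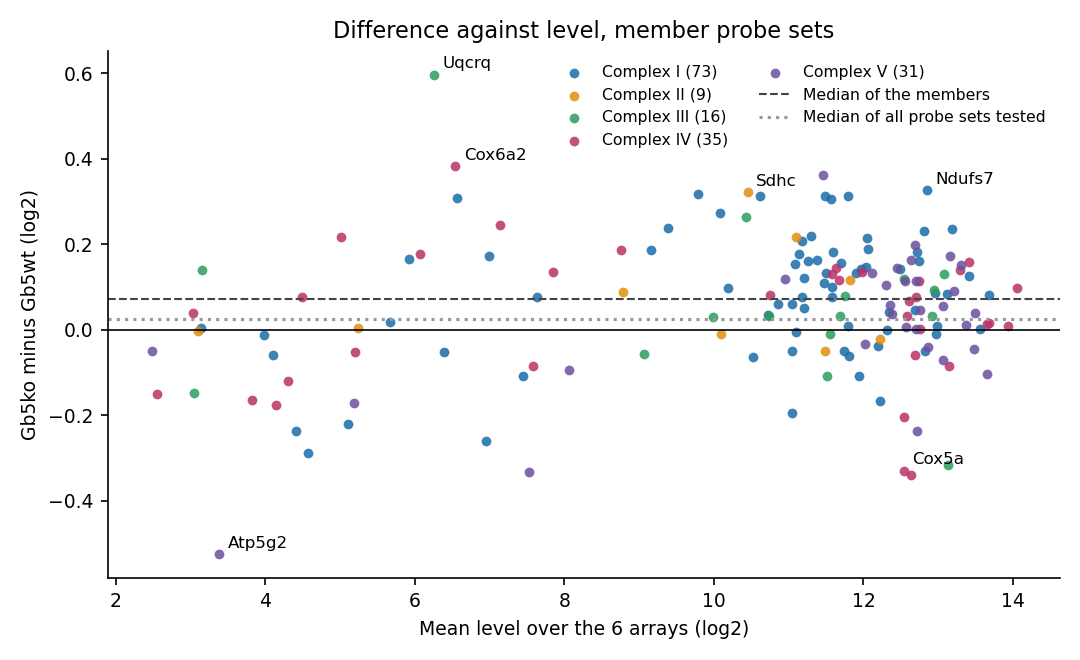
Knockout minus wild-type difference (log2) against the mean level over the 6 arrays (log2) for the 164 member probe sets, coloured by complex, with the 6 smallest p labelled. Most points lie between 10 and 14 on the level axis and close to 0 on the difference axis, around a median of 0.072, and the largest differences belong to dimmer probe sets of Uqcrq and Atp5g2.

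Levels of different probe sets are not on a common scale, because probes hybridise with different strength, so the complexes are described and not ranked by level. Mean levels had a median of 11.5 for complex I, 10.5 for II, 11.5 for III, 11.7 for IV and 12.6 for V, where the median of all probe sets was 5.83. Probe sets with a mean of 10 or more numbered 56 of 73 in complex I, 6 of 9 in II, 11 of 16 in III, 21 of 35 in IV and 26 of 31 in V. The 16 members under 5 were mostly second probe sets of genes that another probe set read brightly.

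Differences had a median of 0.087 in complex I, 0.0036 in II, 0.032 in III, 0.068 in IV and 0.039 in V. Positive differences numbered 53 of 73, 5 of 9, 11 of 16, 24 of 35 and 20 of 31. With each gene read through its brightest probe set, the medians were 0.132, 0.098, 0.062, 0.076 and 0.039, against 0.046 over all 18193 genes, and 29 of 35 complex I genes were positive (82.9%) against 59.9% of all genes. With all 6 arrays complex I had the highest median on either reading, but without Gb5wt replicate 5 complex II had 0.118 and complex I 0.097. Complex V lay below the median of all genes on the reading by gene. Whether complexes differ from one another was not tested. Without Gb5wt replicate 4 the median of complex V was -0.0013 and that of complex I 0.060. Without both this array and Gb5ko replicate 1, complex I had 0.040 and complex III -0.0098.

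In most complexes Gb5ko replicate 1 lay highest and Gb5wt replicate 4 lowest, while the order of the other arrays varied. For each bright member the mean over the 6 arrays was subtracted, and the median of these deviations was taken per array. In complex I it was 0.112, 0.022 and 0.022 in knockout replicates 1 to 3 against -0.110, -0.035 and -0.0059 in wild-type replicates 4 to 6. The highest knockout and the lowest wild-type array stood apart from the other four. In complex IV the medians were 0.072, 0.014 and 0.013 against -0.067, -0.031 and 0.014, and in complex V 0.058, 0.011 and 0.022 against -0.066, 0.024 and -0.0026. In complex II knockout replicate 2 was highest at 0.067, and replicate 1 read 0.028. Gb5wt replicate 4 was lowest in each of the 5 complexes, at -0.135 in complex II and -0.103 in complex III. All probe sets that bright had medians between -0.019 and 0.026, with Gb5ko replicate 1 the lowest.

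Counted by probe set, Gb5wt replicate 4 held the lowest of the 6 values at 74 of 164 members (45.1%), against 22.9% of all probe sets. Gb5ko replicate 1 held the highest at 75 (45.7%), against 29.6%. Gb5wt replicate 4 is the array with the low Xist value. The part of sex in the member values was not tested.

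**Figure D2:**
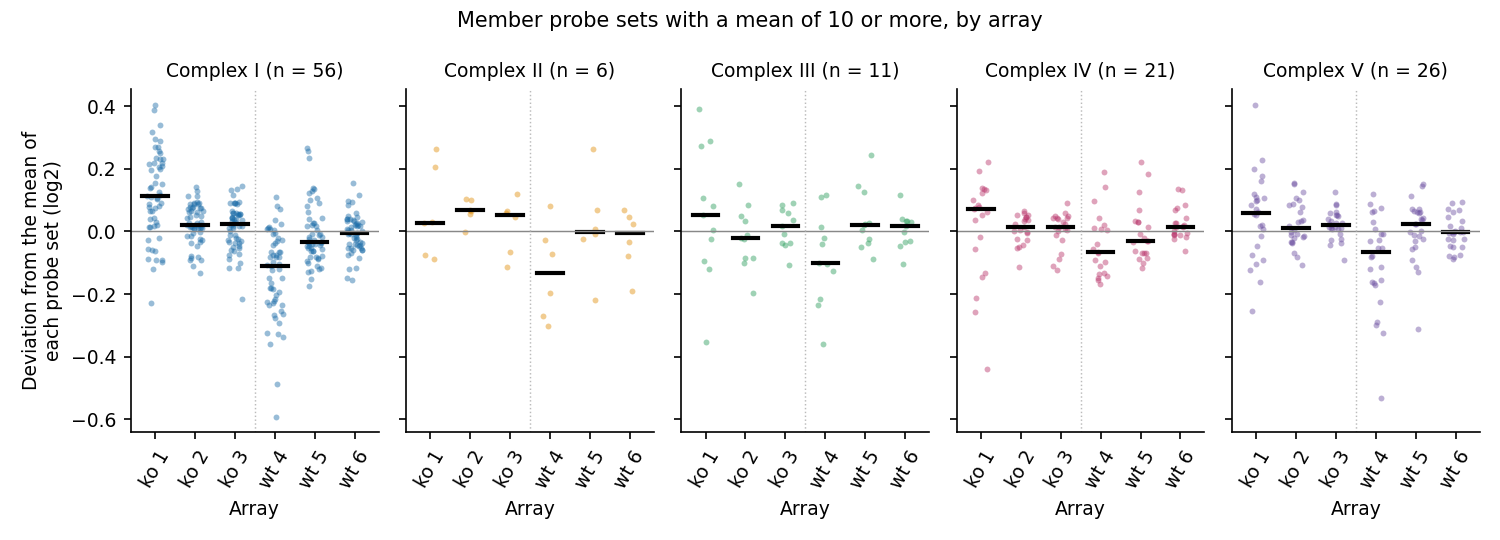
Deviation of each bright member probe set (mean level of 10 or more) from its own mean over the 6 arrays (log2), by array and complex, where ko 1 to ko 3 are the Gb5ko arrays, wt 4 to wt 6 the Gb5wt arrays, points are probe sets and bars medians. The wt 4 bar is the lowest in every panel, from -0.135 to -0.066, and the ko 1 bar the highest in complexes I, III, IV and V.

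Pooled over complexes, co-variation over the 6 arrays was stronger among members than among bright probe sets in general. Within complex II it was not, and within complex IV it was hardly so until group means were subtracted. The median Pearson correlation over pairs of bright members of different genes was 0.34 within a complex (2079 pairs) and 0.28 between complexes (4995 pairs). It was 0.77 for 66 pairs of probe sets of the same gene and 0.020 over all 13068828 pairs of bright probe sets. Within complexes it was highest in complex I at 0.39 (1507 pairs), with 0.10 in complex V, 0.055 in III, 0.021 in IV and -0.18 over the 13 pairs of complex II. Complex I with complex III gave 0.32, with V 0.30, with IV 0.29 and with II 0.26. After each value was taken relative to its group mean, the medians were 0.32 within complexes and 0.24 between them, against 0.027 over all bright probe sets. By complex they were then 0.37 in I, 0.26 in III, 0.11 in IV, 0.078 in V and -0.24 in II. Correlations without Gb5ko replicate 1 and Gb5wt replicate 4 were not computed. The pairs share 6 arrays, a normalization and probe sets, so these values are a description.

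Among complex I subunits, no flavoprotein or iron-sulphur subunit passed the adjusted threshold. Ndufs7, which carries the last iron-sulphur cluster before ubiquinone, read 13.14, 12.96 and 12.94 in knockouts against 12.63, 12.73 and 12.69 in wild types. All knockout arrays lay above all wild-type arrays. The difference was 0.33 ± 0.10 (SE, n = 3 a group), which did not pass (limma adjusted p = 0.252). Its other probe set read 10.44, 9.66 and 9.74 against 9.60, 9.69 and 9.60, where only Gb5ko replicate 1 stood well above the rest.

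Ndufv1, the subunit that binds NADH and FMN, was read by 3 probe sets with differences of 0.31 each. In the dimmest the groups overlapped, at 10.95, 10.69 and 10.67 in knockouts against 10.02, 10.68 and 10.67 in wild-type replicates 4 to 6. The brightest read 12.04, 11.87 and 11.94 in knockouts against 11.43, 11.75 and 11.72, without overlap (limma adjusted p = 0.291). Without Gb5wt replicate 4 its difference was 0.21. Ndufb7, an accessory subunit of the membrane arm, differed by 0.31 ± 0.13 in its dimmer probe set (0.19 without Gb5ko replicate 1) and 0.24 ± 0.11 in its brighter one, and Ndufa5, an accessory subunit of the matrix arm, by 0.23 ± 0.098.

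The 1 complex I member with a negative difference and an unadjusted p under 0.05 was a dim probe set of the accessory subunit Ndufb2, at 6.79, 6.90 and 6.77 against 7.02, 7.18 and 7.04, while its brightest differed by 0.13. The other core subunits differed less. Through their brightest probe sets Ndufs8 differed by 0.19, Ndufv2 by 0.16, Ndufs3 by 0.13 and Ndufs1 by 0.077, all with intervals that included 0. Without Gb5wt replicate 4 the Ndufs8 difference was 0.088. Ndufs8 illustrates the wild-type array that stood apart. A probe set of it read 9.64, 9.49 and 9.37 in knockouts, 9.51 and 9.48 in wild-type replicates 5 and 6, and 8.79 in replicate 4. Ndufa4 read 12.43, 12.30 and 12.21 against 12.35, 12.26 and 12.34 and did not differ beyond this spread, with an interval from -0.23 to 0.23. Its paralogue Ndufa4l2, known as a hypoxia-inducible gene, differed by 0.019 (-0.31 to 0.35).

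Succinate dehydrogenase, complex II, also belongs to the citric acid cycle and has 4 subunits. Sdhc, a membrane anchor, read 10.72, 10.56 and 10.57 in knockouts against 10.38, 10.24 and 10.27 in wild types, a difference of 0.32 ± 0.10 without overlap that did not pass (limma adjusted p = 0.255). Its unadjusted p stayed under 0.05 with each array left out and was 0.0187 with both outlying arrays left out. Its other probe set differed by 0.087. The iron-sulphur subunit Sdhb differed by 0.22 ± 0.12, from 11.31, 11.16 and 11.17 to 10.80, 11.11 and 11.07 in wild types, and by 0.12 without Gb5wt replicate 4. The flavoprotein Sdha (-0.021) and the second anchor Sdhd (-0.049), through their brightest probe sets, lay near 0.

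In complex III the largest difference came from a dim probe set whose brighter counterpart did not share it. This dim probe set of Uqcrq, a small subunit that lies beside cytochrome b, read 6.79, 6.40 and 6.47 in knockouts against 5.87, 5.94 and 6.05 in wild types. At 0.60 ± 0.125 this was the largest positive difference and the smallest p of any member (limma adjusted p = 0.186), and no array overlapped. The brightest Uqcrq probe set read 11.85, 11.36 and 11.45 against 11.67, 11.51 and 11.51, a difference of -0.0094 with an interval from -0.32 to 0.31. The transcript as that probe set reads it thus showed no such difference.

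Uqcrb, another small subunit, read lower in knockouts through its brightest probe set, at 12.78, 13.05 and 13.10 against 13.25, 13.38 and 13.25, a difference of -0.32 ± 0.12. Its other probe set, at 11.42, 11.49 and 11.47 against 11.49, 11.66 and 11.55, differed by -0.11. The core protein Uqcrc1 read 10.82, 10.42 and 10.45 against 10.07, 10.40 and 10.43, a difference of 0.26 ± 0.15. Gb5ko replicate 1 was high and Gb5wt replicate 4 low, and the difference was 0.14 without the former, 0.15 without the latter and 0.022 without both. Uqcrc2 differed by 0.092 and the Rieske iron-sulphur protein Uqcrfs1 by 0.031, and the intervals of all 3 included 0.

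In cytochrome c oxidase, complex IV, bright probe sets of Cox5a and of Cox6c disagreed, as did those of Ndufs4 in complex I. The spans of their differences were 0.33, 0.42 and 0.36. For Ndufs4, 1 bright probe set differed by 0.16 and another by -0.20, each without overlap. Cox5a, a matrix-side subunit, had 3 bright probe sets. The first read 12.29, 12.43 and 12.42 in knockouts against 12.69, 12.77 and 12.68 in wild types, without overlap, a difference of -0.33 ± 0.098 (limma adjusted p = 0.243). The second differed by -0.21 ± 0.094, also without overlap. The third and brightest read 12.83, 12.77 and 12.67 against 12.66, 12.82 and 12.78, a difference of 0.0025 with an interval from -0.23 to 0.23. Cox5a lies on chromosome 9, as do Gnb5, Cox7a2, Sdhd, Uqcrc1 and Atp5l.

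For Cox6c, a small membrane subunit, the differences of its 2 probe sets were -0.34 ± 0.13 and 0.076 ± 0.10. The lower-reading probe set had 12.19 in Gb5ko replicate 1, 12.59 and 12.60 in the other knockouts and 12.82, 12.81 and 12.77 in wild types, so a large part of the difference came from 1 array. Without it the difference was -0.21. Cox4i1 differed by 0.068 and Cox5b, which binds zinc, by 0.098 through their brightest probe sets.

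Several subunits of complex IV exist as tissue isoforms, which the array reads separately. The ubiquitous Cox6a1 differed by 0.014 (-0.20 to 0.23). Cox6a2, the isoform of heart and skeletal muscle, differed by 0.38 ± 0.11 in its dimmer probe set, at 6.91, 6.63 and 6.65 against 6.33, 6.38 and 6.33 (limma adjusted p = 0.233). Those groups did not overlap. The brighter Cox6a2 probe set read 9.02, 8.65 and 8.87 against 8.50, 8.62 and 8.86, and its difference of 0.19 had an interval from -0.12 to 0.49, with 0.10 without Gb5ko replicate 1 and 0.11 without Gb5wt replicate 4.

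The muscle isoform Cox7a1 differed by 0.24 ± 0.11, while Cox7a2, the form found in most tissues, differed by 0.0079. The remaining muscle isoform, Cox8b, differed by -0.18 ± 0.11 at a mean level of 4.15, near the low end of the scale (-0.088 without Gb5wt replicate 5). Of 6 muscle markers 5 had mean levels under 5. In their differences 5 of the 6 were positive, and Tnnt3 was at -0.019. Their mean level was 5.07 to 5.16 in knockouts against 4.81 to 4.92 in wild types. Myl1 had an unadjusted limma p under 0.05 (0.49 ± 0.14) at readings of 4.32 to 5.18. It was 1 of 6 markers (16.7%) with a positive difference at that level, against 9.89% of all genes. Ckm read 3.89 to 4.47 and Tnnt3 3.50 to 3.72, while Acta1, the brightest of the 6, read 7.32 to 7.94. The median deviation of the markers was highest in Gb5ko replicate 1, at 0.24, and lowest in Gb5wt replicate 4, at -0.17. The part of muscle RNA in the Cox6a2 and Cox7a1 differences was not tested. In a bulk sample fewer cells of a type and less RNA per cell cannot be told apart. Cox4i2, the hypoxia-responsive form expressed in lung, differed by -0.051, Cox6b1 by 0.16, Cox6b2 by 0.13, Cox8a by 0.14, Cox8c by -0.12 and Cox7a2l, which joins complexes III and IV, by 0.12.

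**Figure D3:**
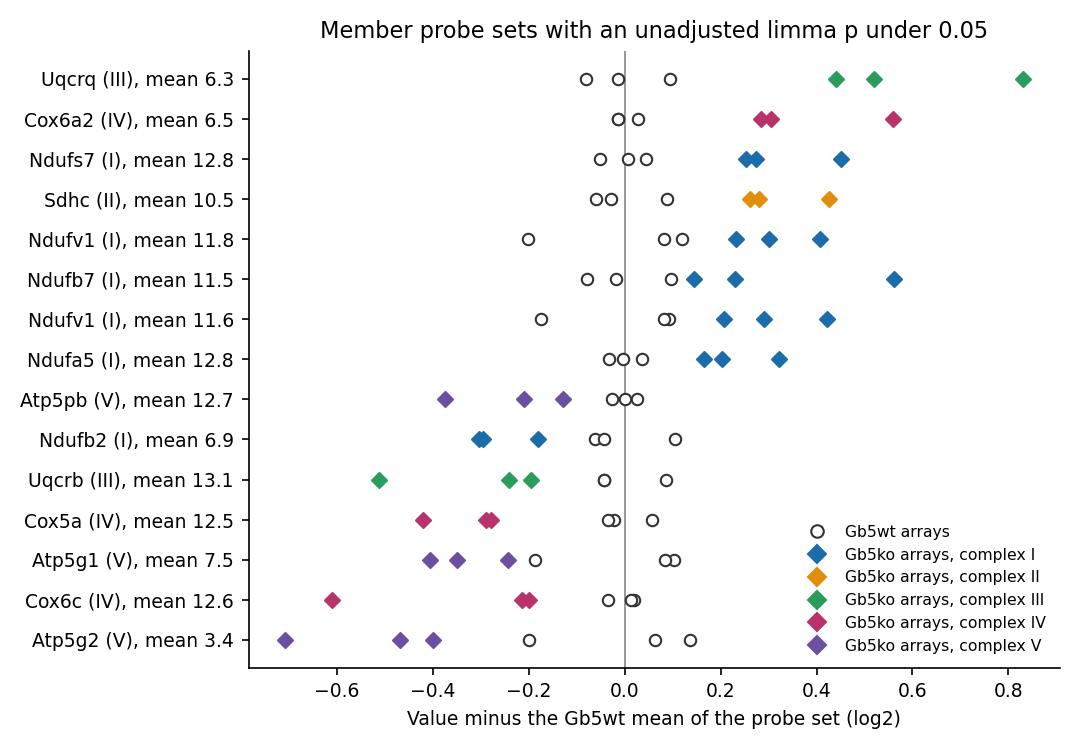
Value on each array minus the wild-type mean of the probe set (log2) for the 15 member probe sets with an unadjusted limma p under 0.05, with open circles for the Gb5wt arrays and diamonds for the Gb5ko arrays. Knockout and wild-type points do not overlap in any row, and the differences run from -0.52 for an Atp5g2 probe set to 0.60 for a Uqcrq probe set, none past the adjusted threshold.

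The ATP synthase, complex V, had the smallest median difference by gene, 0.039. Its catalytic beta subunit Atp5b read 12.66, 12.67 and 12.79 in knockouts against 12.54, 12.77 and 12.79 in wild types, a difference of 0.0027 with an interval from -0.25 to 0.25. The alpha subunit Atp5a1 differed by -0.045 and the gamma subunit Atp5c1, the rotating shaft, by 0.11 through their brightest probe sets. Through the brightest probe sets all 17 genes had intervals within 0.5 of 0. Atp5d, the delta subunit of the central stalk, had the largest positive difference, 0.36 ± 0.17, in its dimmer probe set. It read 11.86, 11.56 and 11.49 against 11.44 and 11.46 in wild-type replicates 5 and 6 and 10.93 in replicate 4, so the groups were close apart from 2 arrays. Without Gb5wt replicate 4 the difference was 0.19.

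The 3 members of complex V with a negative difference and an unadjusted p under 0.05 were each dimmer than another probe set of their gene. Atp5g1, Atp5g2 and Atp5g3 encode the same mature c subunit of the rotor. A probe set of Atp5g2 with mean level 3.38 read 3.24, 2.93 and 3.17 against 3.44, 3.71 and 3.78, a difference of -0.52 ± 0.13 (limma adjusted p = 0.203), and one of Atp5g1 differed by -0.33 ± 0.12 at a mean of 7.52. The bright probe sets of these genes differed by 0.12 and 0.13, with intervals that included 0, and Atp5g3 by -0.10. For the b subunit Atp5pb, 2 bright probe sets differed by 0.045 and -0.24 ± 0.10.

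Disagreement between probe sets of a gene was common. Of 48 genes with several member probe sets, 23 had differences of both signs, and in 7 of these a probe set had an unadjusted p under 0.05. Among the 40 genes with several probe sets at a mean of 8 or more, 15 had both signs. Over all 40 genes the median span of the differences was 0.11, close to the standard error of a difference. Among the 15 with both signs, spans ran from 0.046 for Ndufc1 to 0.42 for Cox6c, the largest of the 40. The middle span of the 15, that of Atp5c1, was 0.21. By the ending of the identifier, where _a_at, _s_at and _x_at mark probe sets whose probes can match several transcripts or genes, medians were 0.11 for _a_at (37), 0.091 for _s_at (17), 0.076 for _x_at (29) and 0.036 for the other 81. Many subunit genes have processed pseudogenes, so cross-hybridisation to near-identical copies is uncertain for these members.

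**Figure D4:**
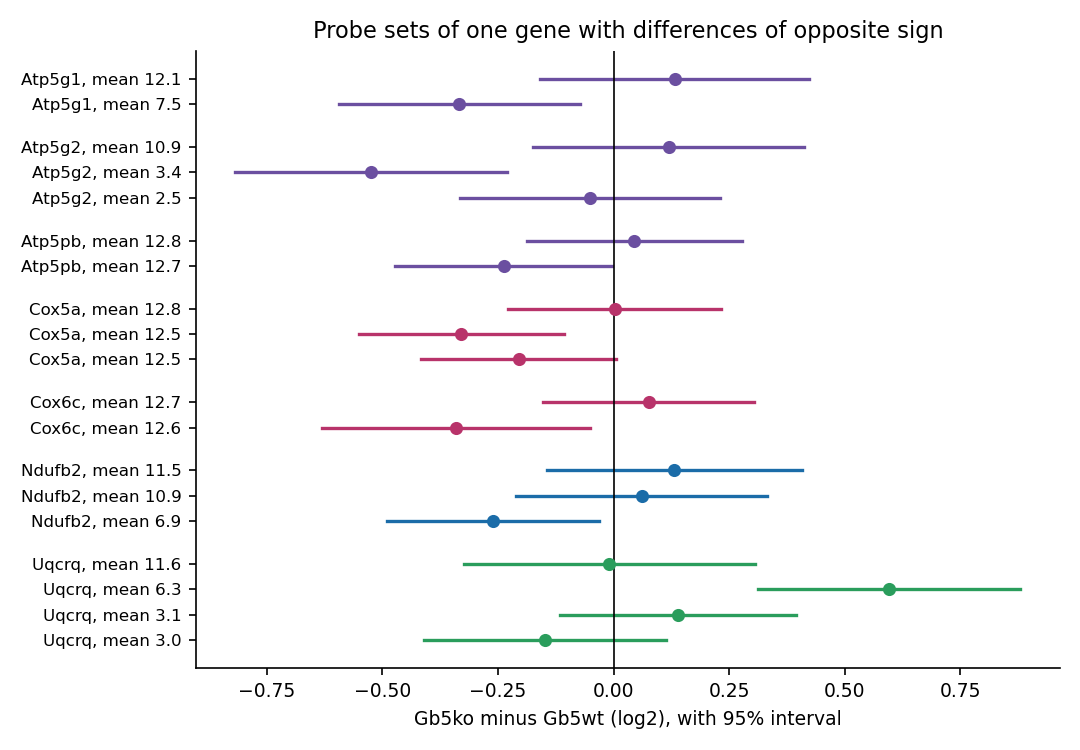
Knockout minus wild-type difference (log2, point) with its 95% interval (line) for every probe set of the 7 member genes whose probe sets had both signs and an unadjusted p under 0.05, labelled with the mean level. The brightest probe set of each gene lies near 0, between -0.0094 for Uqcrq and 0.13 for Atp5g1, while another probe set of the gene has an interval that leaves out 0.

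Other genes of mitochondrial energy metabolism gave 0 calls in limma as well. Each was read through its brightest probe set, and of all 18193 genes read this way 59.9% were positive, 9.89% had a positive difference at an unadjusted p under 0.05 and 5.68% a negative one. Of 46 measured assembly factors, which build the complexes and do not stay in them, 33 were positive, with a median of 0.071, and at an unadjusted p under 0.05 there were 5 positive differences (10.9%), near the share of all genes, and 0 negative ones. The smallest p belonged to Ecsit (0.42 ± 0.13), Foxred1 (0.31 ± 0.11) and Sdhaf2 (0.26 ± 0.099). Ecsit and Foxred1 serve complex I, and Sdhaf2 attaches flavin to Sdha.

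Carriers and other respiratory chain genes had 18 of 24 positive and a median of 0.089, with 4 positive (16.7%) and 2 negative (8.33%) differences at that level. Coq6 (0.32 ± 0.10) and Pdss2 (0.29 ± 0.093) act in ubiquinone synthesis, and Slc25a27, a brain uncoupling protein family member, differed by -0.49 ± 0.12. Cyc1, the cytochrome c1 of complex III, differed by 0.13, and Cycs, cytochrome c itself, by -0.14. The citric acid cycle list had 9 of 16 positive and a median of 0.024, with Dlat of pyruvate dehydrogenase at -0.25 ± 0.11, Suclg2 at -0.25 ± 0.12 and Ogdh at 0.31 ± 0.15. Glycolysis had 8 of 13 positive and a median of 0.044, with Pfkl (0.29 ± 0.12), Pfkp (0.22 ± 0.10) and Pfkm (0.18 ± 0.10), the 3 phosphofructokinase genes.

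Regulators of mitochondrial biogenesis had 6 of 17 positive and a median of -0.031. Gabpa, the DNA-binding subunit of the ETS factor GABP, read 7.24, 7.48 and 7.23 in knockouts against 8.09, 7.69 and 7.80 in wild types, a difference of -0.54 ± 0.13 without overlap that did not pass (limma adjusted p = 0.203). The coactivator Ppargc1a differed by -0.23 ± 0.10 and its relative Pprc1 by 0.28 ± 0.13, Nrf1 by 0.16 ± 0.10 and the mitochondrial transcription factor Tfam by 0.23 ± 0.11. The members with ETS letters, given with the promoters, had a median of 0.077.

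The ribosomal lists were highest in Gb5ko replicate 1 and lowest in Gb5wt replicate 4, as the members were. Mitochondrial ribosomal proteins had 66 of 76 positive and a median of 0.152, and at that level 15 positive (19.7%, against 9.89% of all genes) and 1 negative (1.32%, against 5.68%), among them Mrpl37 (0.37 ± 0.10), Mrps24 (0.43 ± 0.13) and Mrpl28 (0.35 ± 0.11). Their median deviations per array were 0.18, 0.027 and 0.029 in knockouts against -0.14, -0.040 and -0.017 in wild types. Cytosolic ribosomal proteins had 35 of 46 positive and a median of 0.088, with 3 positive (6.52%) and 1 negative (2.17%) at that level, both shares below those of all genes, led by Rps9 (-0.35 ± 0.12), Rpl8 (0.36 ± 0.13) and Rpsa (0.34 ± 0.12). With Gb5ko replicate 1 and Gb5wt replicate 4 left out, the mitochondrial ribosomal median was 0.039 and the cytosolic 0.025.

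Markers of cell types differed in their order over the arrays. Neuronal markers had 3 of 8 positive, and their median deviation was lowest in Gb5ko replicate 1, at -0.11, where the members were highest. Oligodendrocyte markers had 0 of 8 positive, with a mean level of 10.3 to 10.9 in knockouts and 10.7 to 11.1 in wild types. Astrocyte markers had 2 of 8 positive. Microglial markers had 6 of 8 positive and muscle markers 5 of 6, and both were lowest in Gb5wt replicate 4, as the members were, at -0.17. Cerebellar markers had 5 of 5 positive and were highest in Gb5ko replicate 1, at 0.37, as the members were, but 3 had mean levels under 5. Fibroblast markers had 0 of 5 positive. Knockout arrays lay above all wild-type arrays at 3 of 5 cerebellar and 3 of 8 microglial markers, against 16.1% of all genes. The same held for 1 of 8 neuronal and 1 of 6 muscle markers. They lay below at 3 of 5 fibroblast, 4 of 8 astrocyte and 2 of 8 oligodendrocyte markers, against 9.01% of all genes. So they did at 2 of 8 neuronal and 1 of 8 microglial markers. The part of cell composition in the member values was not tested.

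**Figure D5:**
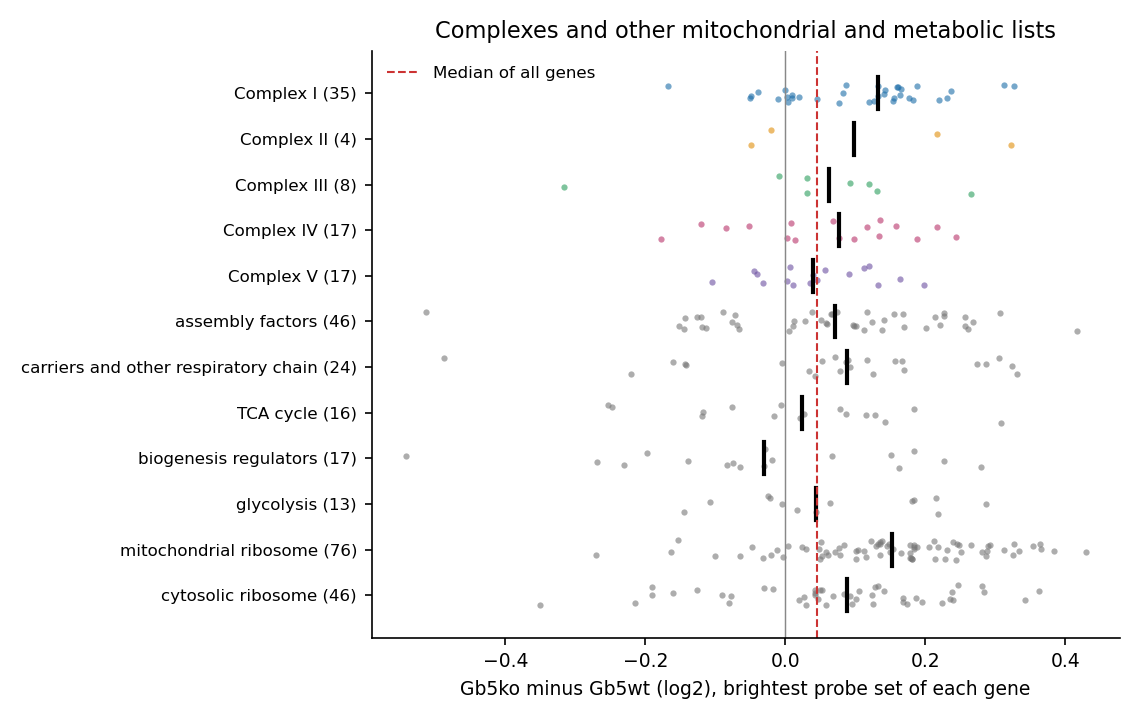
Knockout minus wild-type difference (log2) of each gene's brightest probe set for the 5 complexes and 7 other lists, with the number of genes in brackets, points for genes, black bars for medians and a dashed line at the median of all genes, 0.046. The medians of complex I (0.132) and of the mitochondrial ribosome (0.152) lie to the right of the line.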

How the data were processed

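Total RNA (6 ug per sample, extracted with Trizol, per the labels' protocols) was measured on 6 Affymetrix arrays. The deposited log2 expression values were normalized by the authors with RMA in Partek, per the submitters' processing notes, with no version given. After RMA, differences of dim probe sets are compressed. No further normalization was applied for the main fit. Precision is limited by having 6 arrays, and p-values measure the spread between these samples.

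Of 45101 probe sets, 64 controls were left out and 45037 tested. The annotation gave 1 gene for 34945, several for 932 and none for 9160. Entrez identifiers placed all 164 member probe sets in the RefSeq table of GRCm38.p6. Knockout minus wild type was fitted in R 4.3.3 using limma 3.58.1 (lmFit, then eBayes), with tests in both directions, with Benjamini-Hochberg adjustment over all 45037. The fit was tested on simulated data. Correlations and list medians are descriptions. Figures used matplotlib 3.10.9.

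Members, lists and the rule for named genes were chosen with earlier results of these data known. The rule takes, per complex, the 4 genes with the smallest p and the largest difference each way, core subunits, paralogue pairs, genes whose probe sets disagree in sign with a p under 0.05, 3 genes per list and Gnb5. Bright probe sets, identifier endings, promoters and the joint omission of 2 arrays were chosen after the data were seen. Nrf1, Tfam, Cyc1, Cycs, Ndufs4 and single cell type markers were named outside the rule, after their values were seen.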

Additional observations from a re-analysis of the deposited data

How the results depend on the processing

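No member probe set was called under any alternative run, which were 2 filters on level, 2 normalizations, array weights, 1 probe set per gene, eBayes with trend and robust, each array left out and Gb5ko 1 with Gb5wt 4 left out. The bright filter, the omission of _s_at and _x_at probe sets and of those 2 arrays together were chosen on seeing the data. No paired analysis was possible because replicates 1 to 3 are all knockouts and 4 to 6 all wild types. Against 12 called probe sets, array weights gave 27, trend and robust eBayes 23, the filter on dim probe sets 20, 1 probe set per gene 4 of a shorter table, and single omissions 9 to 12. Members higher at an unadjusted p under 0.05 numbered 22 against 8 with trend and robust eBayes (13.4% against 8.68% of all probe sets), 4 to 11 with 1 array left out, with 4 without Gb5wt replicate 4 and 5 without Gb5ko replicate 1, and 4 without both. Members lower numbered 7 of 164 in the main fit, and their number with trend and robust eBayes is not given here. With 1 probe set per gene they numbered 1 of 81, where the dimmer probe sets of each gene were left out by design. With 1 array left out they numbered 3 to 7. There were 3 without Gb5ko replicate 1 or Gb5wt replicate 5 and 4 without Gb5wt replicate 6. Without Gb5ko replicate 1 and Gb5wt replicate 4 there were 3. The cause of the shifts between runs of the same probe sets was not tested. Without those 2 arrays the median difference was 0.020 over all members, -0.0098 for complex III, 0.035 for IV and -0.0045 for V. With 1 array left out it ran from 0.038 to 0.086 over all members, 0.060 to 0.108 for complex I, 0.018 to 0.118 for II, 0.0064 to 0.080 for III, 0.034 to 0.093 for IV and -0.0013 to 0.050 for V. Complex II gave 0.098 with 1 probe set per gene. The median over all probe sets was 0.026, 0.0065 after quantile normalization and 0.015 after median centring. Of 744 alternative values for 59 named member probe sets, 0 gained a call, and 39 had the opposite sign, none of them of a probe set with an unadjusted p under 0.05. Gnb5 kept its call, from -5.75 to -5.41 with 1 array left out.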
